A study of Caenorhabditis elegans with 91 samples.

Results

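The F-box B and F-box C families are 168 genes of Caenorhabditis elegans, 113 named fbxb and 55 named fbxc, taken here as every row whose symbol starts with fbxb or fbxc and a number. All 168 are listed both among the 21965 genes counted for small RNA and among the 30199 counted for mRNA. In the RefSeq annotation of WBcel235, 103 lie on chromosome II, 23 on IV, 17 on V, 11 on I, 9 on III and 5 on X. There 151 are protein-coding and 17 are pseudogenes, and 94 stand directly beside another member, in 27 blocks.

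An F-box protein is the part of an SCF ubiquitin ligase that picks the substrate. It binds a Skp1-related protein, which ties it to the cullin CUL-1, and the F-box genes of C. elegans have multiplied into several large families. Small RNAs that map to a gene in this animal are mostly short antisense RNAs made from its mRNA by RNA-dependent RNA polymerases, and many depend on upstream double-stranded RNA that the protein RDE-4 binds for Dicer.

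The series measured small RNAs and mRNAs in animals that had RDE-4 everywhere, nowhere or from a neuronal transgene. In whole animals, the groups were wild-type N2 (Bristol), transgene carriers, their descendants, and the rde-4(ne299) mutant (strain BFF 12) that all were set against. The carriers were pigSi3 (BFF 16), an integrated sng-1-driven rde-4 followed by yfp, pigEx9 (BFF 14), an extrachromosomal array of sng-1-driven rde-4 with a muscle mCherry marker, and pigEx10 (BFF 15), an array of rgef-1-driven rde-4 with a coelomocyte gfp marker, each in the rde-4 mutant. Descendants, labelled F1 and F3, were rde-4 mutants without the transgene, and carriers of the arrays were labelled P0.

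Isolated neurons came from WT (BFF 30), pigSi3 (BFF 32) and rde-4 (BFF 31), all with a rab-3-driven nuclear TagRFP, so this reporter was shared by every neuron group and absent from every other. Dissected gonads came from pigSi3, pigSi3 F3, rde-4, and the sid-1(qt9) rde-4 double mutant (BFF 13) with pigSi3 (BFF 33) or without it. SID-1 is a channel that imports double-stranded RNA into cells. All animals were 1-day adults on OP-50 bacteria at 20 °C, apart from N2 and rde-4 whole animals also kept at 25 °C. Groups held 3 libraries, except rde-4 whole animals at 20 °C (11), pigEx9 P0 (6), pigEx9 F1 (2 used), neuron small RNA (2 each), gonad small RNA (2 each, with 3 for rde-4) and neuron mRNA (4 each). Whether replicates came from separate cultures is not stated in the labels, and the p-values therefore speak of the spread among these libraries. With whole animals and tissues, fewer cells of a type and less RNA per cell cannot be told apart.

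Gene counts per small RNA library ran from 918317 to 31077625 for whole animals, from 735328 to 2530023 for neurons and from 1841973 to 49953667 for gonads. For mRNA they ran from 5972135 to 15765852 (neurons) and from 2746062 to 36765116 (gonads). In neuron mRNA, rde-4 itself was at 12 to 30.5 counts per 1000000 gene counts (CPM) in WT, 291 to 328 in pigSi3 and 1.27 to 4.03 in the mutant, with no overlap between the groups. In gonad mRNA it was at 22.8 to 39.8 CPM in all 15 libraries. Summed over 10 neuronal markers, rde-4 neurons had 9781 to 28164 CPM of mRNA, against 69.0 to 92.4 CPM in rde-4 gonads. Summed over 10 germline markers the ranges were 125 to 569 CPM in neurons and 3159 to 3897 CPM in gonads. Muscle markers were also high in the neuron libraries, at 12124 to 20833 CPM over 8 genes, against 169 to 266 CPM in gonads.

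Small RNA of the families rested on a few genes. The members fbxb-14, fbxb-97 and fbxc-43 together held 48.8 to 70.4% of all member counts in each whole-animal library. Per kilobase of gene, introns included, fbxb-14 averaged 3758 CPM (2871 to 5101 over the 11 rde-4 libraries at 20 °C), fbxc-43 1617 CPM and fbxb-97 1466 CPM. The next in order were fbxb-85 at 309 CPM per kb, fbxb-24 at 268, fbxb-4 at 196, fbxb-45 at 144 and fbxb-7 at 141. The ranges of fbxc-43 (1492 to 1877) and fbxb-97 (1079 to 2063) overlapped, and from fbxb-85 on each range overlapped the next, while fbxb-14 lay above all others in its range. These 8 genes made up 69.0% of the family's counts.

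The mRNA order was a different one. In the 15 gonad libraries fbxc-50 averaged 175 CPM per kb (125 to 231) and 42.7% of the family's counts, followed by fbxc-44 at 33.7, fbxc-42 at 22.7, fbxc-47 at 16.4 and fbxc-36 at 13.9 CPM per kb. In the 12 neuron libraries the order began with fbxc-41, a pseudogene, at 50.1 CPM per kb (6.17 to 100.5), then fbxc-53 at 25.4, fbxc-54 at 15.5, fbxb-88 at 12.6 and fbxc-1 at 8.94 CPM per kb. The genes fbxc-1 to fbxc-5 lie in 1 block on chromosome IV, all have the same length and all had nearly the same level, so reads may be shared among near-identical copies and their separate values are uncertain. The 3 leaders in small RNA together made up 0.234 to 1.03% of member counts in gonad mRNA and 0 to 0.556% in neuron mRNA. All members together took 0.605 to 1.18% of gene counts in whole-animal small RNA, against 0.0612 to 0.0917% in gonad mRNA and 0.0137 to 0.05% in neuron mRNA.

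At 25 °C many members had lower small RNA than at 20 °C, in both strains. In the rde-4 mutant 67 of 133 members tested fell (50.4%) and 9 rose, where 22.7% of all genes fell and 25.9% rose (edgeR quasi-likelihood test, Benjamini-Hochberg adjusted p under 0.05). The median log2 difference of the members was -1.16, against 0.03 over all genes. In N2, 57 of the 133 fell (42.9%) and 3 rose, where 13.1% of all genes fell and 16.6% rose, with medians of -0.90 for members and -0.02 for all genes. The 2 strains share no library but were fitted together, and 51 members fell in both, which is 76.1% of the rde-4 list and 89.5% of the N2 list. The share of all genes that fell in both strains was not counted, so this overlap is not read as particular to the members. None was called in opposite directions. All 25 °C libraries belong to 1 listing set, so temperature and that set cannot be told apart.

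Among members above a few CPM, fbxc-18, fbxb-92 and fbxc-30 had some of the largest falls. fbxc-18 had 6.66, 5.43 and 15.1 CPM in rde-4 at 25 °C, against 55.3 (lowest), 87.3 (median) and 121 CPM (highest) in the 11 rde-4 libraries at 20 °C (log2 -3.26, SE 0.352, edgeR adjusted p = 2.48e-07). In N2 it had 13.7, 12.1 and 4.93 CPM at 25 °C and 81.1, 84.4 and 73.1 CPM at 20 °C (log2 -2.96, edgeR adjusted p = 5.13e-06). Every 25 °C library lay below every 20 °C library of both strains. fbxb-92 had 1.27, 1.52 and 3.50 CPM in rde-4 at 25 °C, against 13.9, 16.6 and 24.9 CPM as lowest, median and highest at 20 °C, and 4, 2.69 and 2.52 CPM in N2 at 25 °C, against 30.7, 35.5 and 33.0 CPM at 20 °C. Its groups did not overlap in either strain (log2 -3.03 in rde-4 and -3.43 in N2). fbxc-30 fell alike, with log2 -3.10 in rde-4 and -4.09 in N2, and so did fbxb-39 (-3.09 and -3.79).

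The 3 small RNA leaders went different ways. fbxb-97 had 533, 575 and 630.4 CPM in rde-4 at 25 °C, against 1117, 1491 and 2178 CPM as lowest, median and highest at 20 °C (log2 -1.40, edgeR adjusted p = 1.45e-05). It had 866, 935 and 541 CPM in N2 at 25 °C and 1699, 1759 and 1359 CPM at 20 °C (log2 -1.04, edgeR adjusted p = 0.00246). The groups were apart in both strains. fbxb-14 had 3103, 2904 and 2703 CPM in rde-4 at 25 °C, within the range of 1593 to 3126 CPM at 20 °C, and passed narrowly (log2 0.45, edgeR adjusted p = 0.0436). In N2 it did not pass (log2 0.31, edgeR adjusted p = 0.336). fbxc-43 did not pass in either strain (log2 -0.07 and 0.37).

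A small group rose. fbxb-15 rose in both strains, with 108, 118 and 90.1 CPM in rde-4 at 25 °C, against 17.7, 36.6 and 59.5 CPM as lowest, median and highest at 20 °C (log2 1.52, SE 0.285, edgeR adjusted p = 0.000191). In N2 it had 58.5, 57.0 and 30.2 CPM at 25 °C and 26, 22.5 and 15.1 CPM at 20 °C (log2 1.19, edgeR adjusted p = 0.0258), a call lost under library totals (edgeR adjusted p = 0.0732), with no low-count filter (edgeR adjusted p = 0.0599) and without any 1 of 4 of the 6 libraries (N2 replicates 2 or 3 at 20 °C, and 1 or 2 at 25 °C). fbxb-37 rose in N2, with 323, 306 and 124 CPM at 25 °C and 103, 81.7 and 78.6 CPM at 20 °C (log2 1.51, edgeR adjusted p = 0.000278). In rde-4 it had 92.6, 138 and 101 CPM at 25 °C, overlapping its 20 °C range of 82.4 to 132 CPM, and did not pass. fbxb-24 rose in N2 (log2 0.80, edgeR adjusted p = 0.0183) and lost the call under library totals (edgeR adjusted p = 0.109) and without N2 replicate 3 at 20 °C or N2 replicates 1 or 2 at 25 °C. The other 8 members higher in rde-4 were fbxb-14, fbxb-2, fbxb-38, fbxb-4, fbxb-67, fbxb-68, fbxc-23 and fbxc-8, of which fbxb-67 lost the call under library totals (edgeR adjusted p = 0.573). The groups were apart in fbxb-15 and fbxb-67 and overlapped in the other 7 of the 9. fbxc-8 had 14.5 to 41 CPM at 25 °C and 1.38 to 22.1 CPM at 20 °C, where its mean per listing set of rde-4 libraries ran from 2.18 to 21.4 CPM. Without rde-4 replicate 1 at 25 °C 2 members were higher, and without replicate 2 there were 3.

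**Figure D1:**
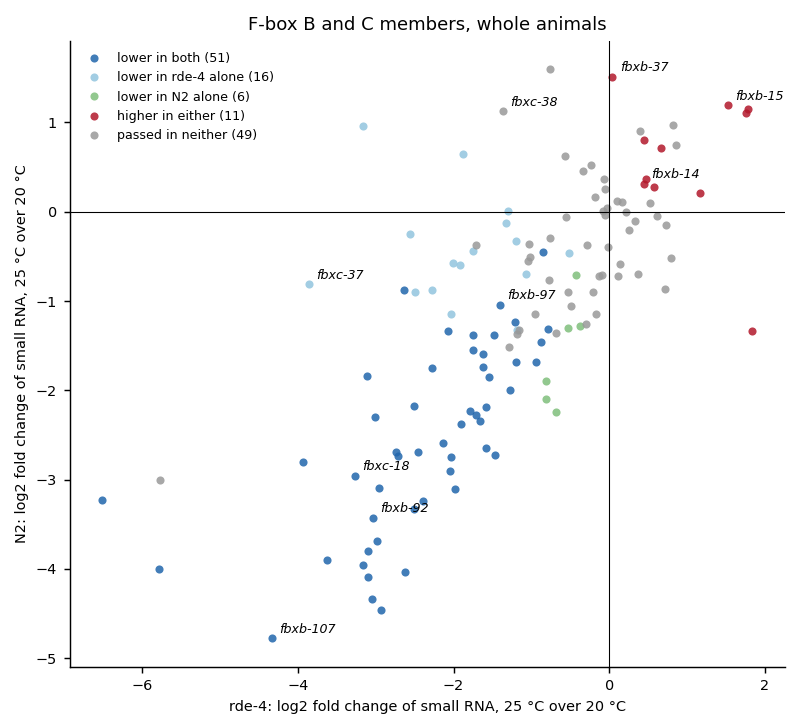
Each point is 1 of the 133 members tested, with the log2 difference in small RNA between 25 °C and 20 °C in rde-4 on the x axis and in N2 on the y axis, coloured by the call at an adjusted p under 0.05. The 51 members that fell in both strains lie in the lower left, 16 fell in rde-4 alone, 6 fell in N2 alone, 11 rose in at least 1 strain and 49 passed in neither.

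**Figure D2:**
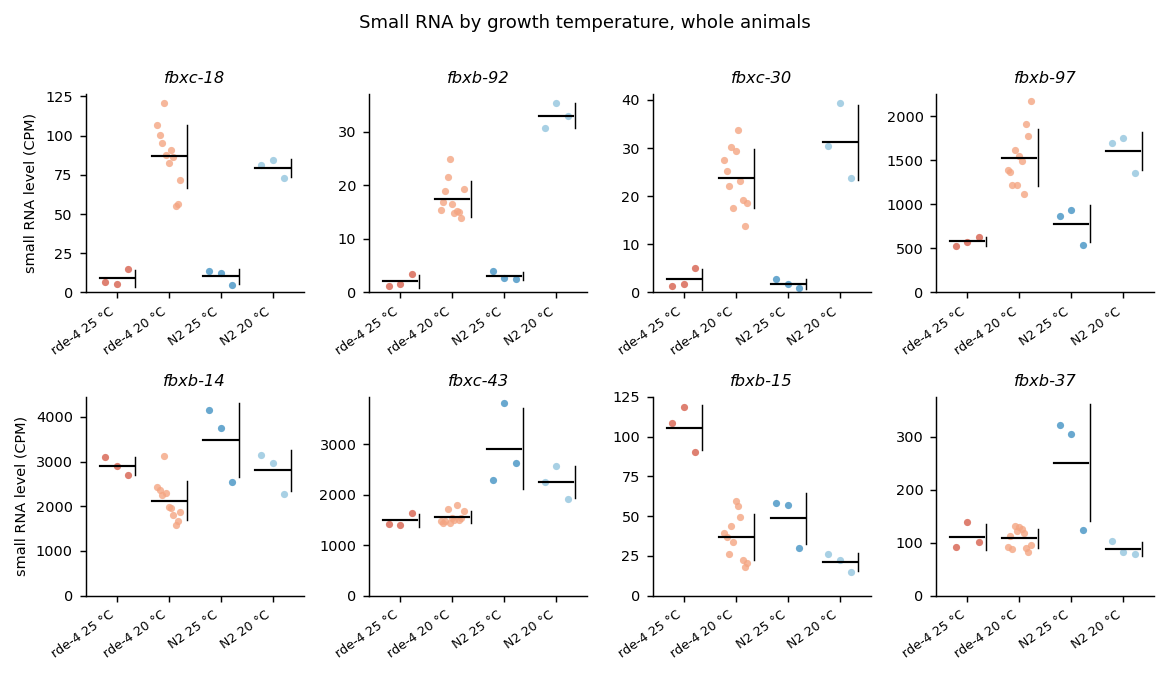
Small RNA of 8 members in CPM (y axis, linear from 0) in rde-4 at 25 °C and 20 °C and N2 at 25 °C and 20 °C, with 1 point per library, a horizontal line at the mean and a vertical line of 1 SD to each side. fbxc-18, fbxb-92, fbxc-30 and fbxb-97 lie lower at 25 °C in both strains, fbxb-15 lies higher in both, and fbxb-37 lies higher in N2.

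Members of both families fell. Of fbxb genes, 50 of 98 fell in rde-4 and 44 of 98 in N2, and of fbxc genes 17 of 35 and 13 of 35. On chromosome II, 47 of 86 fell in rde-4 and 42 of 86 in N2, on III 6 of 9 and 4 of 9, on V 6 of 14 and 6 of 14, on X 2 of 3 and 1 of 3, on I 3 of 11 and 2 of 11, and on IV 3 of 10 and 2 of 10. Over all genes placed on a chromosome by symbol (10360 of 12424 tested), 22.4% of those on II fell in rde-4 and 14% in N2, on III 16.4 and 8.41%, on V 27.8 and 17.1%, on X 39.4 and 21.6%, on I 16.1 and 8.55%, and on IV 22.6 and 13.6%. With 14 members or fewer tested on each chromosome but II, those counts were not compared further. Pseudogenes had 4 of 12 lower in rde-4 and 3 of 12 in N2, and protein-coding members 63 of 121 and 54 of 121. Members beside another member had medians of -1.24 in rde-4 and -1.33 in N2 (39 and 37 of 72 lower), and the other members -0.85 and -0.50 (28 and 20 of 61 lower). In 3 blocks every gene fell in both strains: fbxb-107, fbxb-106 and fbxb-108 on II, fbxb-81, fbxb-82 and fbxb-83 on III, and fbxb-92, fbxb-90 and fbxb-91 on II.

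The share of members that fell was highest in the 2 middle bins of abundance. Of members averaging under 1 CPM 9 of 29 fell in rde-4, of those at 1 to 10 CPM 30 of 54, of those at 10 to 100 CPM 23 of 36, and of those above 100 CPM 5 of 14. Over all genes in the same bins 23.8%, 30.4%, 19.2% and 16.4% fell. The member medians were -1.04, -1.41, -1.32 and -0.05 from the lowest bin to the highest. The summed small RNA of all 168 members was 8076 to 8394 CPM in rde-4 at 25 °C, against 8260.2 to 11171 CPM at 20 °C, and 8128 to 12437 CPM in N2 at 25 °C, against 9167 to 11912 CPM at 20 °C. Those ranges overlapped in both strains.

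Other F-box and SCF genes were looked at by list. Of 136 fbxa genes tested 17 rose and 55 fell in rde-4 (median -0.55), and 20 rose and 36 fell in N2 (median -0.36). Of 18 Skp1-related genes 3 rose and 8 fell in rde-4 and 2 rose and 4 fell in N2, while of 18 SCF core and neddylation genes 2 rose and 1 fell in rde-4 and 2 rose in N2, with ned-8, the ubiquitin-like modifier of cullins, rising in both (log2 0.81 and 0.78). Small RNA of somatic gonad markers moved too: the sum over 5 genes was 6.34 to 8.28 CPM in rde-4 at 25 °C and 55.8 to 209 CPM at 20 °C, and 6.87 to 21.2 CPM in N2 at 25 °C and 88.2 to 187 CPM at 20 °C. Neuronal markers summed to 246 to 345 CPM in rde-4 at 25 °C and 146 to 222 CPM at 20 °C, and their part in the members' values was not tested. With the 3 rde-4 libraries of listing set 1 as the only 20 °C controls, 61 members fell and 9 rose. Scaling by library totals moved the median of all genes to -0.43 in rde-4 and -0.35 in N2, and then 85 members fell and 3 rose in rde-4, and 71 fell and 1 rose in N2.

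Between N2 and the rde-4 mutant at 20 °C, members moved both ways, at a share near that of all genes. Of 136 tested 21 were higher and 17 lower in N2, which is 27.9%, where 31.4% of all genes passed (14.5% higher, 16.9% lower), and the member median was 0.01. Of fbxb genes 15 rose and 14 fell of 99, and of fbxc genes 6 rose and 3 fell of 37. In 37 of the 38 the libraries did not overlap. That share was not counted over all genes called, so nothing about the families is read from it. Scaling by library totals, which moved the median of all genes to -0.25, gave 14 higher and 38 lower. Without N2 replicate 2 or without rde-4 replicate 1, 15 were higher and 8 lower.

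The largest difference was in fbxc-38, a pseudogene on X, which had 28.8, 11.6 and 12.9 CPM in N2, against 1.09, 0.998 and 0.417 CPM in rde-4 (log2 4.46, SE 0.506, edgeR adjusted p = 0.0002). fbxc-37, another pseudogene on X, had 213, 191 and 145 CPM in N2, against 102, 101 and 74.4 CPM in rde-4 (log2 0.99, edgeR adjusted p = 0.00237). Both were higher in every N2 library. fbxb-46 had 222, 223 and 203 CPM in N2, against 114, 120.2 and 105 CPM in rde-4 (log2 0.93, edgeR adjusted p = 0.000217). Also higher were fbxb-83 (log2 1.24), fbxb-92 (0.97), fbxb-56 (0.84), fbxc-26 (0.78) and the small RNA leader fbxc-43 (0.64, with 2453, 2813 and 2172 CPM in N2, against 1623, 1555 and 1611 CPM in rde-4).

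Lower in N2 was fbxc-52, with 33.8, 25.9 and 28.0 CPM in N2, against 85, 76.4 and 63.3 CPM in rde-4 (log2 -1.36, SE 0.15, edgeR adjusted p = 0.000109). fbxb-7 had 152, 122 and 124 CPM in N2, against 261, 263 and 214 CPM in rde-4 (log2 -0.89, edgeR adjusted p = 0.000885). fbxb-8 was at 16.6, 19.2 and 12.4 CPM in N2, against 33.6, 37.2 and 26.9 CPM in rde-4 (log2 -1.02, edgeR adjusted p = 0.00849). No library of one strain overlapped the other in these 3 genes. fbxb-51 (log2 -0.94), fbxb-67 (-0.74) and fbxb-15 (-0.66) were lower as well. Among markers, 5 of 9 neuronal genes were lower in N2 small RNA (summed 111 to 125 CPM in N2 and 218 to 226 CPM in rde-4) and 7 of 10 germline genes were higher (summed 2402 to 2636 CPM in N2 and 1912 to 2062 CPM in rde-4), and their part in the members' values was not tested.

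At 25 °C the same comparison had 78 members tested, 8 higher and 9 lower in N2, which is 21.8%, where 16.5% of all genes passed (6.97% higher, 9.54% lower). None of the 17 overlapped between strains, which was not counted over all genes called. The count was 7 without N2 replicate 2, 11 without N2 replicate 3 and 8 without rde-4 replicate 1. The 8 members higher in N2 held 5 of 24 fbxc genes tested, and the 9 lower ones were all fbxb genes, of 54 tested.

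The X-linked pseudogenes stood out again. fbxc-38 had 33.8, 32.9 and 18.3 CPM in N2, against 0.256, 0 and 0.519 CPM in rde-4 (edgeR adjusted p = 0.00068). fbxc-37 had 75.1, 101 and 51.7 CPM in N2, against 1.54, 3.42 and 7.26 CPM in rde-4 (log2 4.16, SE 0.463, edgeR adjusted p = 0.0014). fbxc-40 had 14.9, 24.6 and 13.3 CPM in N2, against 5.13, 4.10 and 7.14 CPM in rde-4 (log2 1.70, edgeR adjusted p = 0.0113). All N2 libraries lay above all mutant libraries here. Lower in N2 were fbxb-7, with 37.4, 35.4 and 17.1 CPM in N2, against 89.7, 91.7 and 104 CPM in rde-4 (log2 -1.67, edgeR adjusted p = 0.00696), and fbxb-8, with 13.1, 9.54 and 4.06 CPM in N2, against 29.0, 25.7 and 30.5 CPM in rde-4 (log2 -1.67, edgeR adjusted p = 0.02). The 2 temperatures share no library. Higher in N2 at both were fbxb-56, fbxb-87, fbxc-37 and fbxc-38, and lower at both were fbxb-15, fbxb-67, fbxb-69, fbxb-7 and fbxb-8, together 52.9% of the 25 °C list and 23.7% of the 20 °C list. The same overlap over all genes was not counted.

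The difference between the temperatures was tested as an interaction, which 4 of 132 members passed (3.03%, with 2.13% of all genes), all with a more positive difference at 25 °C (1.29% of all genes): fbxb-32, fbxc-37, fbxc-40 and fbxc-52. On the scale of that joint fit fbxc-37 had 86.2, 118.6 and 59.3 CPM in N2 and 1.75, 3.97 and 8.05 CPM in rde-4 at 25 °C, while at 20 °C it had 182, 161 and 121 CPM in N2 and 86.8, 86.2 and 62.4 CPM in rde-4 (log2 difference of differences 3.21, SE 0.498, edgeR adjusted p = 0.00889). fbxc-52 had 25.0, 27.6 and 21.5 CPM in N2 and 28.0, 24.5 and 26.4 CPM in rde-4 at 25 °C, while at 20 °C it had 28.8, 21.9 and 23.3 CPM in N2 and 72.5, 65.1 and 53.1 CPM in rde-4 (1.28, SE 0.217, edgeR adjusted p = 0.0111). In fbxc-37 the rde-4 libraries at 25 °C lay below all others, and in fbxc-52 they overlapped both N2 groups. The count was 2 without any one of rde-4 replicates 1 and 2 at 20 °C, N2 replicate 2 at 25 °C and rde-4 replicate 1 at 25 °C, 7 without N2 replicate 3 or rde-4 replicate 3 at 25 °C, and 8 without N2 replicate 1 at 25 °C.

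**Figure D3:**
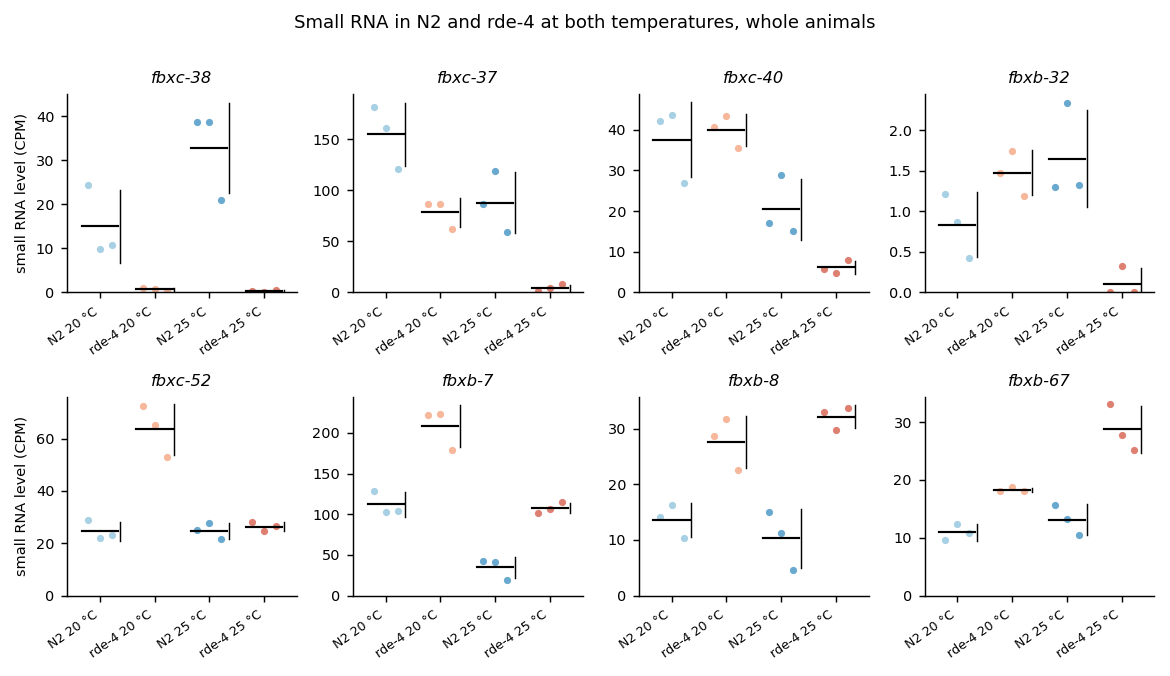
Small RNA of 8 members in CPM in N2 and rde-4 at 20 °C and N2 and rde-4 at 25 °C, with 1 point per library, a horizontal line at the mean and a vertical line of 1 SD to each side. fbxc-38 and fbxc-37 are higher in N2 at both temperatures, fbxb-7, fbxb-8 and fbxb-67 are lower in N2 at both, and fbxc-52 differs at 20 °C.

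The neuronal rde-4 transgenes went with few member calls in whole animals by the main test, and the counts changed with the settings. In pigSi3 carriers 6 of 136 members passed (4.41%, with 5.86% of all genes), 1 higher (1.92% of all genes) and 5 lower (3.94% of all genes). fbxb-17 had 7.55, 7.74 and 7.67 CPM in pigSi3, against 12.6, 13.4 and 13.6 CPM in rde-4 (log2 -0.79, SE 0.119, edgeR adjusted p = 0.00338). fbxb-94, a pseudogene on chromosome I, had 44.9, 42.6 and 31.0 CPM in pigSi3, against 70.8, 63.3 and 57.3 CPM in rde-4 (log2 -0.69, edgeR adjusted p = 0.0206). Also lower were fbxb-10 (log2 -0.91), fbxb-51 (-0.77) and fbxb-4 (-0.49), and fbxb-92 was higher, with 33.5, 25.2 and 24.4 CPM in pigSi3, against 16.8, 18.2 and 20.6 CPM in rde-4 (0.58, edgeR adjusted p = 0.0351). In none of the 6 did the libraries overlap, which was likewise not counted over all genes called. With all 11 rde-4 libraries as controls fbxb-10 and fbxb-51 lost the call (edgeR adjusted p = 0.173 and 0.162), as fbxb-10 did with no low-count filter (edgeR adjusted p = 0.0526). Same-numbered libraries deviated together here, and with the replicate number as a block 7 members were higher and 12 lower. The share of all genes under that block is not given here. The count was 3 without rde-4 replicate 1 and 1 without rde-4 replicate 2 or pigSi3 replicate 2. These controls are also those of N2 at 20 °C, where fbxb-92 was higher and fbxb-51 lower as well.

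In pigEx9 carriers 10 of 112 members passed, which is 8.93%, where 6.15% of all genes passed (1.84% higher, 4.31% lower), and in all 10 the CPM of the groups overlapped, the fit having the listing set as a term. fbxb-12 was the 1 higher member, with 6.35, 8.46 and 20.1 CPM as lowest, median and highest of 6 carriers, against 3.68, 3.42, 4.92, 6.55 and 3.17 CPM in rde-4 (log2 1.30, SE 0.265, edgeR adjusted p = 0.00575). Lower was fbxb-15, at 21.8, 29.2 and 53.2 CPM as lowest, median and highest, against 50.1, 36.1, 69.6, 65.2 and 53.9 CPM in rde-4 (log2 -0.71, edgeR adjusted p = 0.00323). fbxb-70 (log2 -3.08), fbxb-18, fbxc-57 (-0.94), fbxc-42 (-0.69), fbxb-26 (-0.51), fbxb-93 (-0.49), fbxb-7 (-0.44) and fbxc-46 (-0.36) were lower too. The count was 6 without carrier replicate 1, carrier replicate 2 or rde-4 replicate 6, and 5 without carrier replicate 3. In listing set 3 alone 4 members were higher and none lower.

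In pigEx10 carriers fbxb-106 was the 1 member of 108 that passed, and it was lower (1.8% of all genes passed, 0.515% lower). It had 12.9, 13.7 and 12.2 CPM in carriers, 14.0, 13.9 and 14.9 CPM in F1 and 9.52, 13.2 and 14.0 CPM in F3, against 25.1, 20.5 and 23.1 CPM in rde-4. All 9 libraries with a pigEx10 history lay below the 3 controls that they share, and the calls were lower in P0 (log2 -0.82, SE 0.159, edgeR adjusted p = 0.0174) and F3 (log2 -0.89, SE 0.161, edgeR adjusted p = 0.035, where 0.355% of all genes passed, 0.178% lower) but not in F1 (log2 -0.68, edgeR adjusted p = 0.127). With all 11 rde-4 libraries as controls the edgeR adjusted p was 0.0619 in P0 and 0.113 in F3, while 1 other member was higher and 17 lower in P0 and none in F3. That fit has no term for the listing set, so differences between sets enter these counts. Its share of all genes is not given here, and nothing is read from them. The call was also lost without any 1 of rde-4 replicates 9 or 11 or carrier replicates 1 to 3 in P0, and without any 1 of rde-4 replicates 9 to 11 or F3 replicates 1 or 2 in F3.

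The other descendants gave no member call in small RNA of whole animals. By the edgeR test 0 members passed in pigEx9 F1 (112 tested, 0.108% of all genes, 5 members at an unadjusted p under 0.05, 0 by DESeq2), pigEx9 F3 (0.027% of all genes, 6 members unadjusted, 0 by DESeq2), pigEx10 F1 (0.355% of all genes, 11 unadjusted, 1 by DESeq2) and pigSi3 F3 whole animals (0.0172% of all genes, 11 unadjusted, 2 by DESeq2). The pigSi3 F3 libraries have no control in their own listing set and were set against all 11 rde-4 libraries.

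Some members also varied widely between listing sets of rde-4 libraries at 20 °C. fbxc-17 averaged 7.22 and 4.32 CPM in rde-4 of listing sets 1 and 2 and 50.8 and 59.3 CPM in sets 3 and 4, a 13.7-fold span. fbxc-8 went the other way, with 17.8, 21.4, 2.32 and 2.18 CPM in the same order, a 9.81-fold span. fbxb-8 averaged 32.4, 29.8, 70.9 and 19.4 CPM, and fbxb-45 151, 141, 228 and 78.2 CPM. The labels give all 11 libraries the same strain and temperature.

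In gonads, small RNAs of a few fbxb genes were lower in carriers and in the sid-1 mutant than in rde-4. pigSi3 gonads had 3 members lower and none higher, 2.52% of the members tested, where 1.98% of all genes passed and 1.47% were lower. fbxb-11 had 4.77 and 5.54 CPM in pigSi3, against 16.7, 13.8 and 22.5 CPM in rde-4 (log2 -1.77, SE 0.266, edgeR adjusted p = 0.00908). fbxb-94 had 32.0 and 32.3 CPM in pigSi3, against 66.3, 62.3 and 81.2 CPM in rde-4 (log2 -1.12, SE 0.19, edgeR adjusted p = 0.0163). fbxb-12, a pseudogene, had 0.596 and 0.825 CPM in pigSi3, against 2.84, 3.46 and 3.90 CPM in rde-4 (log2 -2.22, SE 0.455, edgeR adjusted p = 0.0375). The groups did not overlap in these 3 genes. Without either pigSi3 library no member passed, in fits that leave pigSi3 with 1 library, assumed to vary like the other gonad groups.

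The sid-1 rde-4 double mutant, set against the same rde-4 gonads, had 2 members lower, 1.68% of the members tested, where 3.31% of all genes passed and 2.55% were lower. They were fbxb-11, with 4.37 and 7.14 CPM in the double mutant (log2 -1.55, edgeR adjusted p = 0.0127), and fbxb-94, with 31.1 and 41.2 CPM (log2 -0.94, edgeR adjusted p = 0.0267). Both lay below all 3 rde-4 libraries, and neither passed without 1 of the double-mutant libraries, which leaves 1 library assumed to vary like the other gonad groups, while without rde-4 replicate 3 the count was 1. In the sid-1 mutant background pigSi3 gave no call by the edgeR test (0.573% of all genes, 2 members unadjusted, 0 by DESeq2): fbxb-11 had 5.79 and 6.41 CPM with pigSi3, against 4.37 and 7.14 CPM without it, and fbxb-94 had 43.5 and 38.7 CPM with pigSi3, against 31.1 and 41.2 CPM without it. The interaction of pigSi3 with sid-1 had 0 members by the edgeR test (1.37% of all genes, 20 members unadjusted, 3 by DESeq2), the smallest adjusted p being 0.0559 for fbxb-94 (log2 1.29) and 0.0613 for fbxb-11 (1.79).

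In pigSi3 F3 gonads fbxb-11 was at 22.5 and 24.5 CPM and fbxb-94 at 69.6 and 103 CPM, overlapping rde-4 gonads, and no member passed by the edgeR test (0.165% of all genes, 31 members unadjusted, 1 by DESeq2). The member median was 0.42, with 100 members above 0 and 19 below, against 0.00 over all genes, of which 50% lay above 0. F3 replicate 1 had 1841973 gene counts and replicate 2 had 21273074. Without replicate 1 the count was 50 of 127 members, 49 higher (38.6%, with 17.1% of all genes) and 1 lower (0.787%, with 16% of all genes). That fit tests 1 F3 library, which is assumed to vary like the other gonad groups. Without replicate 2 the count was 0 and the member median -0.17. fbxc-40 had 54.3 and 118 CPM in F3 replicates 1 and 2, against 47.1, 45.1 and 36 CPM in rde-4 (log2 1.06, edgeR adjusted p = 0.0929).

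**Figure D4:**
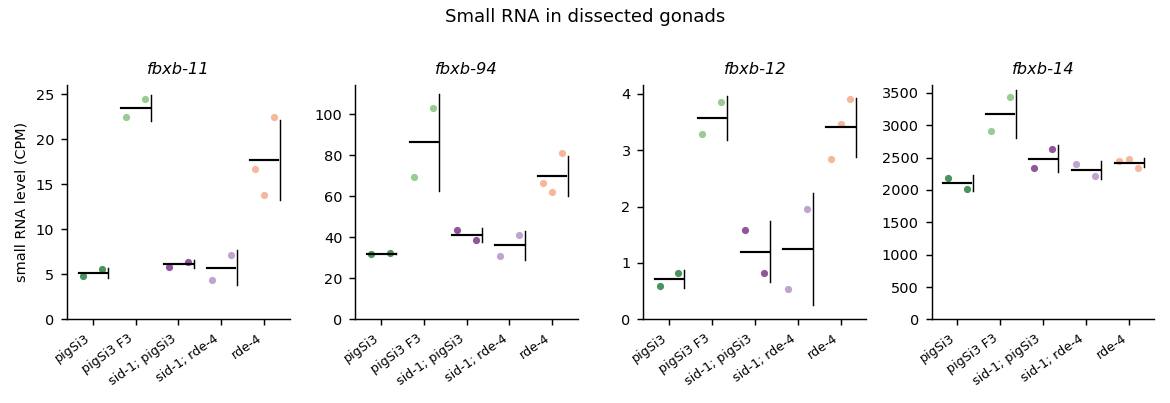
Gonad small RNA of fbxb-11, fbxb-94, fbxb-12 and fbxb-14 in CPM in pigSi3, pigSi3 F3, sid-1 rde-4 with pigSi3, sid-1 rde-4 and rde-4, with 1 point per library, a horizontal line at the mean and a vertical line of 1 SD to each side. fbxb-11 and fbxb-94 are lower in pigSi3 and in both sid-1 groups than in pigSi3 F3 and rde-4, while fbxb-14, at 2019 to 3432 CPM, passed no test.

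The mRNA of these genes in the same tissue was low. fbxb-11 had 0.499, 2.34 and 2.09 CPM of mRNA in pigSi3 gonads, against 1.19, 3.27 and 7.08 CPM in rde-4 gonads (log2 -1.13, edgeR adjusted p = 0.893). fbxb-12 had 0.623, 0.870 and 1.05 CPM in pigSi3, against 0.693, 1.03 and 0.843 CPM in rde-4. fbxb-94 had 0, 0.218 and 0 CPM in pigSi3, against 0.166, 0.344 and 0.337 CPM in rde-4, and did not pass the low-count filter. The groups overlapped for each of the 3 genes.

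Neuron small RNA libraries gave no member call. WT neurons had 0 of 67 members by the edgeR test, where 3.34% of all genes passed, with 9 members at an unadjusted p under 0.05 and 0 by DESeq2, and pigSi3 neurons had 0 (0.955% of all genes, 2 members unadjusted, 0 by DESeq2). Nearest to the threshold in WT were fbxb-37, with 104 and 133 CPM in WT, against 60.6 and 81.7 CPM in rde-4 (log2 0.73, edgeR adjusted p = 0.0929), and fbxc-40, with 41.1 and 33.4 CPM in WT, against 57.1 and 81.7 CPM in rde-4 (log2 -0.87, edgeR adjusted p = 0.0962). Without rde-4 replicate 1 the WT count was 3, and without pigSi3 replicate 2 the pigSi3 count was 1. These fits leave a group with 1 library, assumed to vary like the other neuron groups. fbxb-14 was at 3221 and 3099 CPM in WT, 3315 and 3258 CPM in pigSi3 and 3221 and 3485 CPM in rde-4 neurons.

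In rde-4 neurons, more members had higher small RNA than lower, set against rde-4 gonads, and most did not pass. Of 112 members tested 36 were higher and 4 lower in neurons, which is 35.7%, where 29.3% of all genes passed (14.3% higher, 15% lower), and the member median was 0.46, against -0.08 over all genes. Scaling by library totals moved the median of all genes to -0.46 and gave 23 members higher and 8 lower. Without neuron rde-4 replicate 2, 20 were higher and 4 lower, in a fit where the 1 neuron library left is assumed to vary like the gonad libraries. Tissue coincides here with the way cells were taken and with the reporter strain, and these cannot be told apart. Reads outside genes made up 70.9 and 61.4% of the rde-4 neuron libraries, against 20.4, 22.9 and 20.0% of the rde-4 gonad libraries. Their part in the members' values was not tested.

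fbxb-63 had 80.9 and 104 CPM in neurons, against 10.6, 11 and 17 CPM in gonads (log2 2.84, SE 0.245, edgeR adjusted p = 0.000332). fbxb-106 had 63.5 and 99.3 CPM in neurons, against 12.9, 13.0 and 15.2 CPM in gonads (log2 2.55, SE 0.212, edgeR adjusted p = 0.000294). fbxc-38 had 6.09 and 12.7 CPM in neurons, against 0.498, 0.690 and 1.05 CPM in gonads (log2 3.59, edgeR adjusted p = 0.00345). Each was higher in both neuron libraries. The leaders fbxb-14 (3926 and 4042 CPM in neurons, against 2279, 2309 and 2197 CPM in gonads), fbxb-97 (log2 0.92) and fbxc-43 (0.40) were higher too. The 4 lower members were all fbxc genes, fbxc-50 (53.9 and 38.1 CPM in neurons, against 81.0, 84.0 and 83.1 CPM in gonads, log2 -0.83), fbxc-44 (-0.80), fbxc-32 (-0.77) and fbxc-36 (-2.89), the last not called by DESeq2 (adjusted p = 0.122).

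For mRNA the balance lay the other way, with 18 members higher and 37 lower in rde-4 neurons than in rde-4 gonads, of 77 tested. That is 71.4%, where 73.2% of all genes passed (39% higher, 34.2% lower). The member median was -2.06, against 0.10 over all genes, and scaling by library totals, which moved the median of all genes to -1.01, gave 15 higher and 45 lower. Of fbxb genes 6 of 46 were higher and 21 lower, and of fbxc genes 12 of 31 were higher and 16 lower. The fbxa family had 34 higher and 28 lower of 71.

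Several fbxc mRNAs were abundant in 1 of the tissues and at or near 0 in the other. fbxc-41 had 101, 250.2, 108 and 41 CPM in neurons, against 0.0608, 0.101 and 0 CPM in gonads (edgeR adjusted p = 4.38e-07). fbxc-53 had 77.5, 142, 101 and 21.3 CPM in neurons, against 0.0811, 0.201 and 0 CPM in gonads (edgeR adjusted p = 1.01e-06). fbxc-54 differed less and was not near 0 in gonads, with 29.7, 28.1, 69.1 and 33.6 CPM in neurons, against 6.24, 4.33 and 4.45 CPM in gonads (log2 2.99, edgeR adjusted p = 3.85e-05). No neuron library overlapped a gonad library in these 3 genes. fbxb-88 (log2 3.67), fbxc-1 (log2 4.59) and the other genes up to fbxc-5, which may share reads, were higher in neurons as well. The rest of that block, fbxc-8 to fbxc-12, had no call in this comparison.

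In the other direction fbxc-50 had 4.02, 0.822, 3.21 and 2.95 CPM in neurons, against 234, 258 and 194 CPM in gonads (log2 -6.36, SE 0.468, edgeR adjusted p = 1.83e-07). fbxc-42 had 1.18, 0, 1.07 and 0.246 CPM in neurons, against 31.5, 35.3 and 23.1 CPM in gonads (log2 -5.52, edgeR adjusted p = 1.12e-05). fbxc-44 had 2.35, 0.685, 0.268 and 2.83 CPM in neurons, against 31.4, 20.3 and 21.0 CPM in gonads (log2 -3.95, edgeR adjusted p = 8.74e-05). The gonad libraries were the higher ones in each. fbxc-45 (log2 -5.34), fbxc-36 (-4.53), fbxc-47 (-2.36) and fbxb-7 (-2.07) were lower in neurons too. All 10 germline markers and all 8 oocyte markers were lower in neurons.

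**Figure D5:**
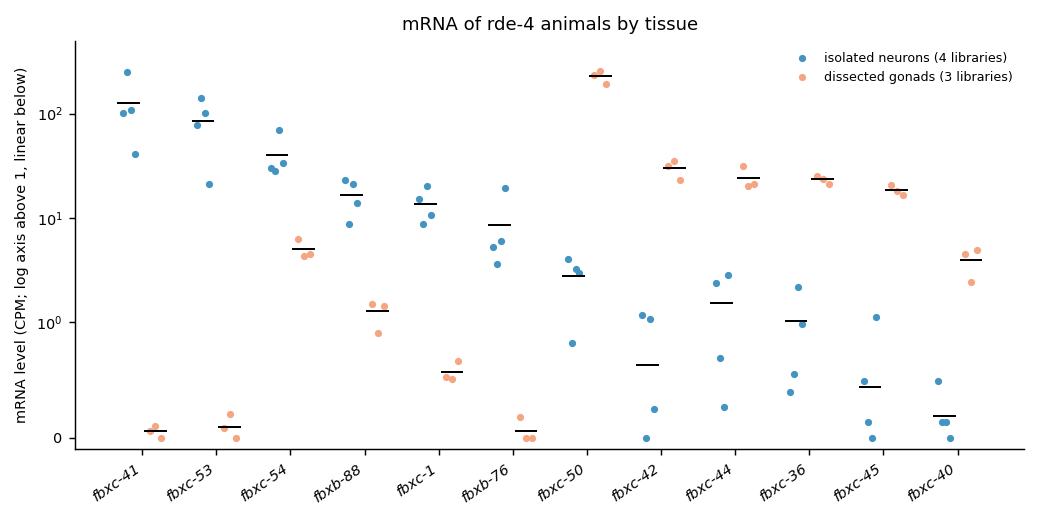
mRNA of 12 members in CPM (y axis, linear up to 1 CPM and logarithmic above) in rde-4 neurons and rde-4 gonads, with 1 point per library and a horizontal line at the mean. fbxc-41 and fbxc-53 are at 21.3 CPM or more in all 4 neuron libraries and under 0.21 CPM in all 3 gonad libraries, and fbxc-50 is at 194 CPM or more in gonads and under 4.1 CPM in neurons.

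Set side by side, the readouts of tissue had 2 members higher in neurons in both (fbxb-53 and fbxb-72), 4 lower in both (fbxc-32, fbxc-36, fbxc-44 and fbxc-50) and 8 lower in mRNA but higher in small RNA (fbxb-105, fbxb-11, fbxb-45, fbxc-18, fbxc-25, fbxc-28, fbxc-40 and fbxc-43). None was higher in mRNA and lower in small RNA. Of the 57 members tested in both readouts these are 3.51%, 7.02% and 14%, where over the 8408 genes tested in both 5.85% were higher in both, 11.2% lower in both, 3.95% lower in mRNA but higher in small RNA and 2.01% the reverse. Of the members higher in mRNA 7 could be tested in small RNA, and of those lower 31. The mRNAs that led in neurons had few small RNAs: fbxc-53 had 0 counts in all 5 small RNA libraries of rde-4 neurons and gonads, and fbxc-41 had 3.48 and 0 CPM in neurons, against 0.415, 0.153 and 0.436 CPM in gonads. The small RNA leader fbxb-97 had 0 CPM of mRNA in all 4 rde-4 neuron libraries, against 0.791, 0.805 and 0.379 CPM in gonads.

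Within neurons mRNA gave no member call. WT had 0 of 39 members by the edgeR test (0.433% of all genes, 8 members unadjusted, 2 by DESeq2), and pigSi3 had 0 (0.0236% of all genes, 3 members unadjusted, 0 by DESeq2). Without WT replicate 4 the WT count was 1. fbxc-53 came closest in WT, with 8.52, 12.6, 2.29 and 29.3 CPM in WT, against 63.1, 115, 82.2 and 17.4 CPM in rde-4 (log2 -2.40, SE 0.66, edgeR adjusted p = 0.119). It had 43, 66.9, 72.7 and 61.8 CPM in pigSi3. The WT and rde-4 libraries overlapped, through WT replicate 4 and rde-4 replicate 4. Over the WT libraries neuronal markers summed to 4616 to 20843 CPM and over the rde-4 libraries to 8015 to 22821 CPM, and their part in these values was not tested.

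In gonad mRNA the pigSi3 F3 descendants had 4 of 84 members called (4.76%, with 28% of all genes). fbxc-44 was higher, with 54.6, 51.6 and 63.4 CPM in F3, against 43, 34.7 and 37.4 CPM in rde-4 (log2 0.56, SE 0.148, edgeR adjusted p = 0.0123). fbxc-40 was lower, with 3.32, 3.62 and 1.11 CPM in F3, against 6.10, 4.13 and 8.77 CPM in rde-4 (log2 -1.25, edgeR adjusted p = 0.029). fbxc-51 (log2 -1.61) and fbxc-36 (-0.50) were lower as well. In all 4 the libraries were apart, which was not counted over all genes called. The count was 2 without rde-4 replicate 1 or F3 replicate 2, 1 without rde-4 replicate 2 or 3, and 0 without F3 replicate 3. Scaling by library totals moved the median of all genes to 0.19 and left 1 member higher and 1 lower, with fbxc-40 (edgeR adjusted p = 0.0507) and fbxc-36 (0.175) no longer called. With no low-count filter fbxc-36 (edgeR adjusted p = 0.109) and fbxc-51 (0.0762) lost the call. Germline markers were lower in F3 in 6 of 10 (summed 2783 to 3375 CPM in F3 and 5327 to 5623 CPM in rde-4) and oocyte markers in 5 of 8 (summed 7998 to 9494 CPM in F3 and 16812 to 18734 CPM in rde-4), and their part in the 4 calls was not tested. In small RNA of F3 gonads fbxc-44, at 166 and 183 CPM in F3, against 107.5, 129 and 151 CPM in rde-4, did not pass.

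The remaining gonad comparisons had 0 members by the edgeR test: pigSi3 against rde-4 (0.483% of all genes, 8 members unadjusted, 0 by DESeq2), pigSi3 in the sid-1 mutant (0.123% of all genes, 2 unadjusted, 0 by DESeq2), the sid-1 rde-4 double mutant against rde-4 (0.388% of all genes, 2 unadjusted, 0 by DESeq2) and the interaction (0.416% of all genes, 12 unadjusted, 1 by DESeq2). The highest gonad mRNA of the families, fbxc-50, was at 369.6, 282 and 303 CPM in pigSi3, 299, 265 and 205 CPM in pigSi3 F3, and 319.7, 441 and 346 CPM in rde-4 gonads. The F3 libraries lay below the rde-4 libraries, without passing (log2 -0.52, edgeR adjusted p = 0.0847).

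Over all comparisons of 2 groups 149 members were tested at least once and 19 never, and 46 members, the 19 untested ones included, passed in none. No member was at 0 in every small RNA library, while fbxb-115 and fbxb-2 were at 0 in every mRNA library. Those called most often, in 6 comparisons each, were fbxb-11, fbxb-15, fbxb-7, fbxb-94, fbxb-106 and fbxc-40.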

How the data were processed

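The values are read counts per gene, 1 table per library, as deposited by the authors for 64 small RNA and 27 mRNA libraries. Per the submitters' processing notes, reads were trimmed with cutadapt, examined with FastQC, counted with HTSeq on ce10 and tested with DESeq2. No version is named there, and aligner, annotation and strand setting are not given in the sources used, so a gene and an antisense neighbour, or near-identical copies, may share counts. HTSeq's lines for reads outside genes were left out of totals and tests.

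The main test was the robust quasi-likelihood F test of edgeR 4.0.16 (R 4.3.3) after TMM scaling and the filterByExpr low-count filter, with p-values adjusted by Benjamini-Hochberg over all genes tested, with 0.05 as the threshold. CPM are TMM-scaled within each fit, so a gene's values differ a little between fits, and standard errors of log2 differences were derived from the F statistic. Library sizes and the targeted genes are given unscaled. Libraries were grouped by the labels. Whole-animal libraries fall into 6 listing sets, a technical grouping taken from the order of the records, which the labels do not name. Comparisons lie within a set, or have set as a term (pigEx9), except for temperature and pigSi3 F3. pigEx9 F1 replicate 3 held 1792 gene counts and was left out, as under the minimum of 100000.

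A member is named where it passed and its groups did not overlap, up to 8 per direction by size of the difference, where it passed in 3 or more comparisons or an interaction, or where it was among the 8 highest per kb. Gene lengths include introns and come, like chromosomes, neighbours and gene types, from RefSeq WBcel235, since coding lengths were not used here. Other genes are named to check their values beside these. Members, lists and rules were chosen with earlier results of these data known. Alternatives were library totals, RLE scaling, no low-count filter, DESeq2 1.42.0, other control libraries, the replicate number as a block, and each replicate left out. The fits were also run on simulated counts with known changes, drawn without differences between listing sets. The outcome is not given here and no result rests on it. Replicate numbers were taken to pair libraries where every same-numbered pair deviated together (correlation over 0.1). This held for pigSi3 against rde-4 in whole animals (0.12 to 0.30) and N2 at 25 °C against 20 °C (0.28 to 0.43). The titles name no pairs, and the N2 libraries at 25 °C and 20 °C lie in different listing sets, so pairing is not established. In neuron small RNA of pigSi3 against rde-4 both pairs were at 0.18. Groups of 2 libraries give 1 value for both pairs, and it was not read as pairing.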

Additional observations from a re-analysis of the deposited data

Results flagged for a closer look

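In rde-4 neuron mRNA, replicate 4 stood apart from the other 3 libraries in fbxb-76, by the gap to its nearest neighbour over the range of the group. fbxb-76 was at 19.4 CPM in replicate 4, against 5.29, 3.56 and 6.03 CPM in replicates 1 to 3. fbxb-11 and fbxb-34 were each at 0.123 CPM in replicate 4 and at 0 CPM in the other 3 libraries. There 0.123 CPM is 1 count, and 1 count against 0 meets this measure by construction, so nothing is read from it. In all 13 sets of values were examined, each a member within a group of 4 to 10 libraries, and chance flags about 1 in 20. The 3 flagged were the members above, all in this group and through replicate 4.

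For 4 members the difference between N2 and rde-4 in whole-animal small RNA was itself different at 25 °C and 20 °C, by the interaction term of the edgeR test. The log2 difference of differences was 3.91 for fbxb-32 (SE 0.849, adjusted p = 0.0348), 3.21 for fbxc-37, 1.84 for fbxc-40 (SE 0.382, adjusted p = 0.0303) and 1.28 for fbxc-52. fbxb-32 was at 1.29, 2.33 and 1.32 CPM in N2 and 0, 0.326 and 0 CPM in rde-4 at 25 °C, and at 1.22, 0.874 and 0.420 CPM in N2 and 1.48, 1.75 and 1.19 CPM in rde-4 at 20 °C, so its fitted value rests on few counts. fbxc-40 was at 17.1, 29.0 and 15.2 CPM in N2 and 5.83, 4.76 and 7.90 CPM in rde-4 at 25 °C, and at 42.3, 43.5 and 27 CPM in N2 and 40.7, 43.5 and 35.6 CPM in rde-4 at 20 °C.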

How the results depend on the processing

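In 102 gene results no direction changed: 1156 values under alternatives were all of the same sign, and 989 of them kept the same call. Each result is a member that passed with its groups apart, or in an interaction, and that choice itself favours a stable direction. Calls with overlapping groups, such as all those in pigEx9 carriers, are not among them. Counts of members called moved by more than 1.5 times in these cases. With DESeq2 the count was 1 in place of 0 for the gonad mRNA interaction, pigSi3 F3 gonad small RNA and pigEx10 F1, 2 for WT neuron mRNA and pigSi3 F3 whole animals, and 3 for the gonad small RNA interaction. It was 11 for pigSi3 gonad small RNA and for pigSi3 whole animals, 7 for the sid-1 rde-4 gonads, 10 for the temperature interaction and 3 for pigEx10 P0. With library totals it was 2 for pigSi3 F3 gonad mRNA, 1 for the gonad small RNA interaction and 5 for the sid-1 rde-4 gonads. With no filter it was 6 for pigSi3 gonads, 2 for the gonad small RNA interaction, 5 for the sid-1 rde-4 gonads and 3 for WT neuron small RNA. With all 11 rde-4 libraries as controls, in fits without a term for the listing set, it was 0 for pigEx10 F3, 18 for pigEx10 P0 and 6 for pigEx9 P0. Within 1 listing set it was 1 for pigEx9 F1 and 4 for pigEx9 P0. The cause was not tested.

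With the replicate number as a block the count was 19 for pigSi3 whole animals, where the numbers were taken to pair the libraries by a correlation over 0.1. It was 58 for N2 at 20 °C, 1 for pigSi3 gonads, 1 for the sid-1 rde-4 gonads and 1 for pigSi3 F3 whole animals. There that rule was not met (correlations of 0.09 to 0.38 for N2 at 20 °C). For N2 at 25 °C against 20 °C the block gave 68. No other count moved by more than 1.5 times under the block. No paired analysis was possible for pigEx9 and pigEx10 because carriers and controls of a listing set share fewer than 2 numbers.

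Leaving out 1 library at a time gave 61 to 72 members for rde-4 at 25 °C, 54 to 62 for N2 at 25 °C, 23 to 44 for N2 at 20 °C, 7 to 20 for N2 against rde-4 at 25 °C, 2 to 8 for the interaction, 1 to 7 for pigSi3, 5 to 14 for pigEx9 P0 and 0 to 1 for pigEx10 P0 and F3. It gave 0 to 2 for pigSi3 gonads and the sid-1 rde-4 gonads, 0 to 50 for pigSi3 F3 gonads, 0 to 3 for WT and 0 to 1 for pigSi3 neuron small RNA, 0 to 1 for WT neuron mRNA, 0 to 6 for pigSi3 F3 gonad mRNA, and 46 to 63 and 24 to 41 for neurons against gonads in mRNA and small RNA.

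Of 168 members 67 passed the low-count filter in neuron small RNA, where 7537 genes passed, 39 in neuron mRNA, where 12693 passed, and 136 in whole-animal small RNA at 20 °C, where 12800 passed. Gonad and neuron small RNA groups of 2 libraries leave few degrees of freedom, and with 1 of them left out the other is assumed to vary like the other groups. Absence of a call there does not show that values did not differ.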
